A study of Caenorhabditis elegans with 13 samples.

Results

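The mir-58 family of Caenorhabditis elegans was followed through 4 mature microRNAs (miRNAs), cel-miR-58a-3p, cel-miR-80-3p, cel-miR-81-3p and cel-miR-82-3p (written below without the species prefix), chosen by name from 434 mature miRNAs counted in each library. Small RNA of 18 to 30 nt had been sequenced from the whole body of strain N2, the standard laboratory worm, in 13 libraries. The groups were 5 libraries fed ad libitum (AL) on adult days 2, 4, 6, 8 and 10, 4 libraries labelled CR and 4 labelled IF, the last 2 groups on days 4, 6, 8 and 10 only. The series places CR and IF beside ad libitum feeding in a study of dietary restriction, and neither feeding protocol is described in the labels. Each diet was sampled once on a day, so the error of a diet difference below is its variation between days, and the error of a day difference its variation between diets. Whether separate cultures were used is not stated, so the p-values speak of the spread among these libraries alone, which may in part be technical.

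A miRNA pairs with target mRNAs mainly through its seed, a short stretch near its 5′ end, and lowers their translation or stability. The mir-58 family shares its seed with bantam, a growth regulator in Drosophila, and is among the most abundant miRNA families of the worm. In C. elegans its members act partly redundantly, and their loss together alters body size, egg laying and signalling through the Sma/Mab TGF-β pathway. Loss of mir-80 alone has been reported to put fed worms into a state like dietary restriction with a longer life.

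The 4 guide arms come from 4 hairpins on 3 chromosomes of the WBcel235 assembly. The mir-58a hairpin lies on chromosome IV, from 3233254 to 3233350 on the plus strand, in an intron of Y67D8A.2. The mir-80 hairpin lies on chromosome III, from 8865270 to 8865367 on the minus strand, outside any protein-coding gene. On the same strand, mir-238 is 1961 bp and mir-90 is 8620 bp away from it. The mir-81 hairpin (chromosome X, 2431072 to 2431179, plus strand) and the mir-82 hairpin (chromosome X, 2435258 to 2435354, minus strand) both fall within introns of gid-2, 4079 bp apart and on opposite strands. miR-81-3p and miR-82-3p are near copies of each other, and how reads fitting more than 1 family member were assigned is not given in the sources used here, so the split between them is uncertain to that extent.

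All 4 members had reads in 13 of 13 libraries, whose totals ran from 2639586 to 5143918 reads. In AL the family held 64.7%, 69.7%, 45.9%, 30.4% and 52.6% of all miRNA reads from day 2 to day 10. In CR it held 52.3%, 32.0%, 12.9% and 40.9% on days 4, 6, 8 and 10. In IF it held 38.4%, 24.6%, 14.0% and 44.7% on the same days. Day 8 was the lowest day in each diet, and on every day from 4 to 10 AL was above CR and IF. In these whole-worm libraries a lower share can come from fewer cells of a type, from less of the miRNA per cell or from more of another miRNA, and these cannot be told apart. The miRNA outside the family with the most reads was miR-36-3p on days 2 and 4, miR-35-3p on day 6, miR-48-5p on day 8 and miR-228-5p on day 10, whatever the diet.

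**Figure D1:**
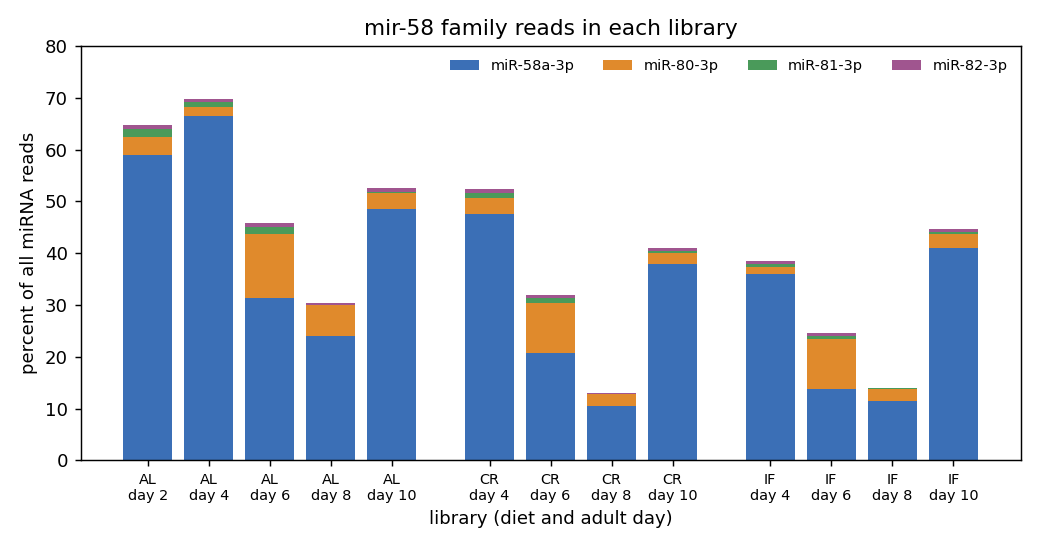
Reads of the 4 family members as a percent of all miRNA reads (vertical axis) in each of the 13 libraries, stacked by member. The bars run from 12.9% (CR, day 8) to 69.7% (AL, day 4), and the miR-80-3p segment is widest on day 6 in every diet.

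The balance within the family moved with adult day, and these shares are free of any scaling between libraries. miR-80-3p, in AL, made up 5.32%, 2.33%, 27.0%, 19.5% and 5.76% of family reads from day 2 to day 10. In CR it made up 5.99%, 30.4%, 18.1% and 5.39% on days 4 to 10, and in IF 3.55%, 39.2%, 16.0% and 5.94%. The 3 libraries of day 6 (27.0% to 39.2%) thus lay above all others, and those of day 8 (16.0% to 19.5%) next. Those of days 2, 4 and 10 (2.33% to 5.99%) were lowest, with no overlap between these ranges. The number of miRNAs outside the family that separate by day was not counted. miR-58a-3p mirrored the share of miR-80-3p, as it must where the shares add up to the whole family and the remaining members are scarce. It took 90.9% to 95.4% of family reads on day 4 but 56.1% to 68.4% by day 6, then 79.0% to 82.4% and, by day 10, 92.0% to 92.6%. Per read of miR-80-3p there were 40.9 reads of miR-58a-3p in AL on day 4 and 2.53 on day 6. The same ratio went from 15.2 to 2.13 in CR and from 26.4 to 1.43 in IF. Shares are given without a test. Their 95% Wilson intervals were at most 0.254 percentage points wide, which takes in no more than counting error, as PCR copies of 1 molecule are counted apart.

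The share of miR-80-3p differed between IF and AL by -3.53 to 12.2 percentage points over the 4 days and was higher in IF on 3 of them. Between CR and AL it differed by -1.45 to 3.66 points, higher in CR on 2 of 4 days. The share of miR-58a-3p was higher in IF than in AL on 1 of 4 days and higher in CR than in AL on 2 of 4.

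The neighbours miR-81-3p and miR-82-3p were the scarcer members, together with at most a few percent of the family. miR-81-3p made up 0.315% to 2.59% of family reads and miR-82-3p 0.687% to 2.39%. In AL there were 2.29, 1.51, 1.24, 0.274 and 0.500 reads of miR-81-3p per read of miR-82-3p from day 2 to day 10. In CR the ratio was 1.30, 1.11, 0.820 and 0.791 on days 4 to 10, and in IF it was 0.853, 0.966, 0.900 and 0.804. miR-81-3p was therefore the more abundant of the pair up to day 6 in AL and CR and the less abundant on days 8 and 10, while in IF it was the less abundant on each day.

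**Figure D2:**
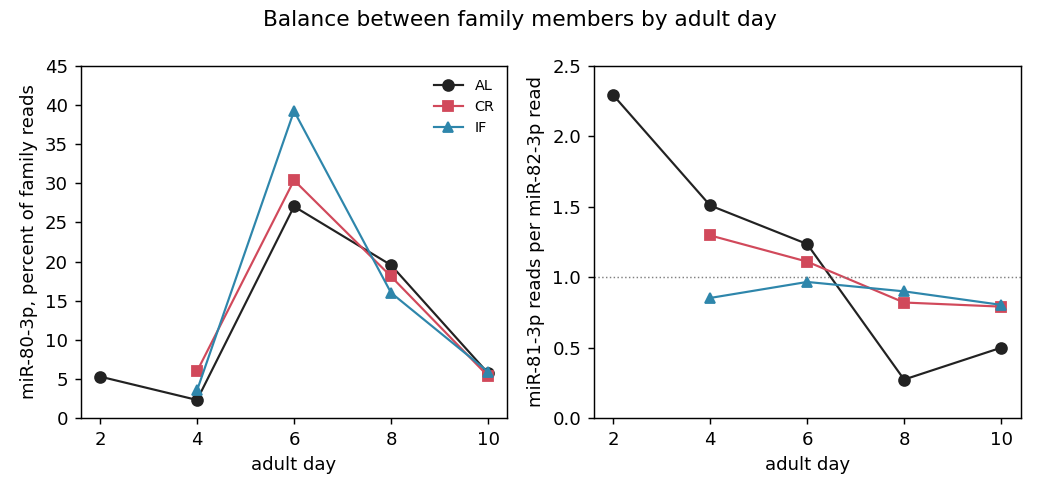
Left, miR-80-3p as a percent of family reads; right, reads of miR-81-3p per read of miR-82-3p, each against adult day, with 1 point per library and lines joining libraries of a diet. The left panel peaks on day 6 at 27.0% to 39.2%; the right panel goes in AL from 2.29 on day 2 to 0.274 on day 8 and stays between 0.804 and 0.966 in IF (the dotted line marks equal reads).

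For levels, counts were scaled by the trimmed mean of M values (TMM) and are given as counts per 1000000 scaled reads (CPM). miR-58a-3p stood in AL at 581155 CPM, 952058, 203886, 506337 and 557033 from day 2 to day 10. It stood in CR at 423904, 132474, 147838 and 334406 CPM on days 4 to 10, and in IF at 373157, 84666, 169935 and 277540 CPM. On each shared day AL was above both other diets, although the ranges of the diets over days overlap. By reads it ranked first of 434 miRNAs in 9 of 13 libraries and second in the others, which were IF on day 6 and all diets on day 8.

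miR-80-3p stood in AL at 33857 CPM, 23265, 80586, 125290 and 34816 from day 2 to day 10. In CR it stood at 27953, 62174, 33177 and 19470 CPM on days 4 to 10, and in IF at 14151, 59193, 33011 and 17918 CPM. Day 6 was its highest day in CR and IF; in AL day 8 was higher on this scale, whereas its share of all AL reads was 12.4% on day 6 and 5.95% on day 8. Its rank ran from 2 to 12.

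miR-81-3p stood in AL at 15188 CPM, 13702, 7552, 2017 and 4176 from day 2 to day 10. In CR it stood at 8235, 5305, 1033 and 3278 CPM, and in IF at 5011, 3491, 1515 and 2833 CPM. Each diet had its lowest value on day 8 and stayed on day 10 below its value of day 6. miR-82-3p stood in AL at 6627, 9082, 6114, 7353 and 8352 CPM from day 2 to day 10. This narrow range belongs to TMM: as a percent of all reads the AL values of days 4 to 10 ran from 0.349% to 0.941%, lowest on day 8. It stood in CR at 6353, 4777, 1259 and 4142 CPM and in IF at 5876, 3612, 1684 and 3524 CPM. Every IF library and the CR libraries of days 6 to 10 thus lay below every AL library on the TMM scale. How many other miRNAs separate in this way was not counted. Reads of different miRNAs need not reflect molecules equally, because adapters ligate to some sequences better than to others.

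**Figure D3:**
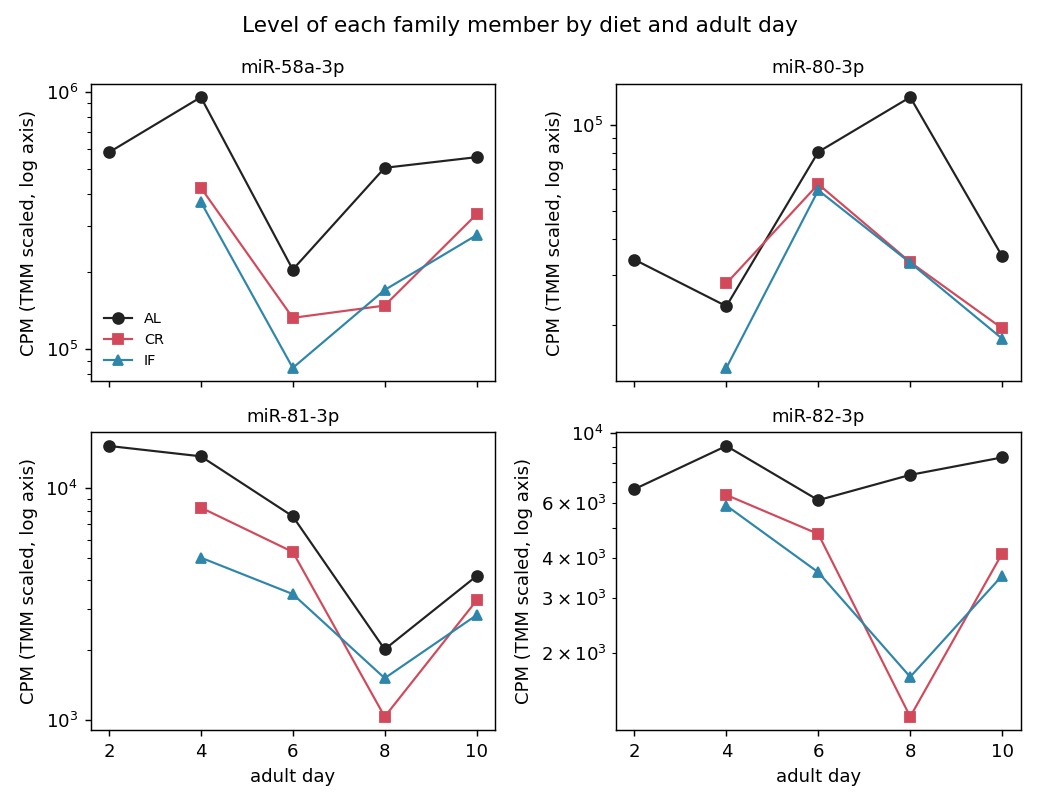
CPM of each member (log axis, TMM scaled) against adult day, 1 point per library, with lines joining libraries of a diet. The AL points lie highest on every shared day for miR-58a-3p, miR-81-3p and miR-82-3p; for miR-80-3p the CR point of day 4 (27953) lies above that of AL (23265).

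The first comparison asked whether IF worms differ in the family from AL worms of equal age. miR-58a-3p and miR-82-3p fell in IF, and the values of miR-80-3p and miR-81-3p also lay below 0 on 4 of 4 days without passing the test. For miR-82-3p the mean over days 4 to 10 was 7725 ± 1287 CPM (SD, n = 4) in AL against 3674 ± 1716 (SD, n = 4) in IF. On this scale the 2 diets did not overlap, and how many other miRNAs separate in this way was not counted. As a percent of all reads they overlap, at 0.349% to 0.941% in AL and 0.114% to 0.589% in IF. Its log2 fold change was -1.26 ± 0.38 (SE), with an edgeR adjusted p of 0.0405. Day by day its log2 ratio was -0.63, -0.76, -2.13 and -1.25. The log2 fold change of miR-58a-3p was -1.31 ± 0.31 (edgeR adjusted p = 0.0115), with daily ratios from -1.58 to -1.01. miR-80-3p had a mean of 65989 ± 46643 CPM in AL against 31068 ± 20444 in IF (SD, n = 4 each), and its difference of -1.06 ± 0.37 log2 units missed the threshold (edgeR adjusted p = 0.0670). miR-81-3p had a mean of 6862 ± 5097 CPM in AL against 3212 ± 1454 in IF (SD, n = 4 each) and a difference of -0.86 ± 0.33 log2 units (edgeR adjusted p = 0.0884).

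Of the 4 members 2 were thus lower (edgeR's quasi-likelihood test, Benjamini-Hochberg adjusted p under 0.05), where 5.66% of all 212 tested miRNAs were. The median log2 fold change was -1.16 over the members and 0.03 over all tested miRNAs. The call of miR-82-3p was lost on leaving out AL day 6, 8 or 10, CR day 6 or 10, or IF day 6, 8 or 10 (edgeR adjusted p from 0.0366 to 0.138 and log2 fold change from -1.45 to -0.80 over the 12 single omissions). That of miR-58a-3p was lost without IF day 6 (0.0567), and also when day 4 (0.0723) or day 6 (0.119) was dropped in all diets; that of miR-82-3p was lost when day 6 (0.15), 8 (0.122) or 10 (0.0964) was. Total counts moved the median of all miRNAs by 0.42, with 37 higher and 5 lower of 212 in place of 18 and 12, and miR-82-3p was then at -0.79 (edgeR adjusted p = 0.135). Without day in the model neither passed (edgeR adjusted p = 0.795 for miR-58a-3p and 0.725 for miR-82-3p), and 0 of 212 miRNAs did. With day 4, 6, 8 or 10 dropped in all diets, 27 of 204, 6 of 195, 22 of 205 and 36 of 198 miRNAs passed. The full fit called 30 of 212.

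CR was compared with AL in the same way. All 4 values lay below 0 and none passed. miR-82-3p had a log2 difference of -1.13 ± 0.38 (edgeR adjusted p = 0.116), miR-58a-3p one of -1.08 ± 0.31 (0.0698), miR-80-3p one of -0.74 ± 0.38 (0.303) and miR-81-3p one of -0.64 ± 0.33 (0.303). miR-80-3p was the member whose daily ratio to AL was not below 0 throughout: 0.26 on day 4, then -0.37, -1.92 and -0.84. edgeR called 0 of 4 members and 0 of 212 miRNAs (0% of those tested), while 2 members and 39 miRNAs had an unadjusted p under 0.05. By limma-voom 0 members passed, and by DESeq2 2 did, miR-58a-3p (adjusted p = 0.00527) and miR-82-3p (0.0143), among 21 of 212 miRNAs it called, 10 of them lower. The AL libraries are common to this comparison and to that of IF, so the 2 are not independent.

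**Figure D4:**
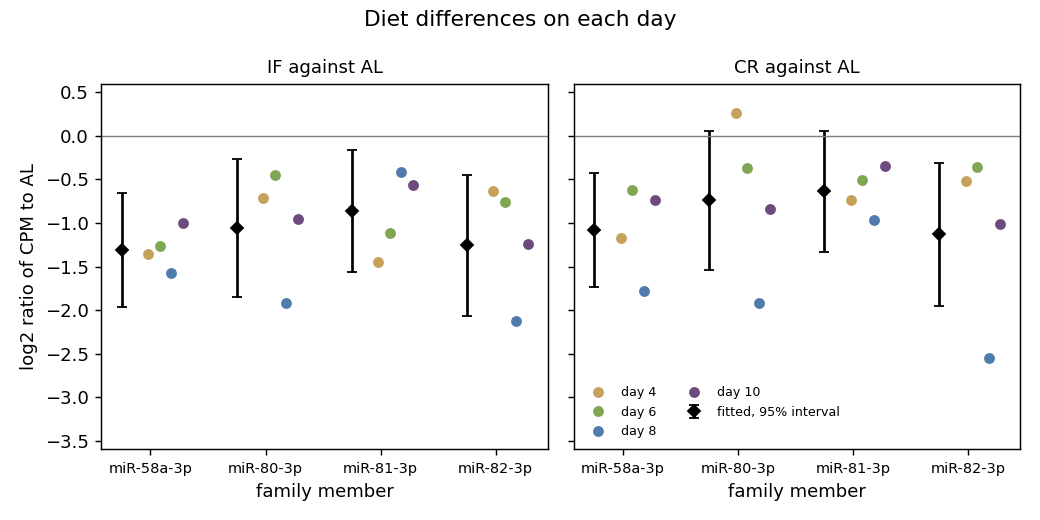
Log2 ratio of CPM to AL for each member in IF (left) and CR (right); coloured points are single days, black diamonds the fitted log2 fold change with its 95% interval. All points but 1 (miR-80-3p, CR, day 4, at 0.26) lie below 0, and the day 8 points of miR-80-3p and miR-82-3p lie lowest, between -2.55 and -1.92.

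CR and IF did not differ detectably in any member. The log2 differences, CR minus IF, were 0.24 for miR-58a-3p (95% interval -0.41 to 0.88), 0.32 for miR-80-3p (-0.46 to 1.10), 0.23 for miR-81-3p (-0.47 to 0.92) and 0.13 for miR-82-3p (-0.66 to 0.92). edgeR called 0 of 4 members and 0% of the 212 miRNAs, while 0 members and 18 miRNAs had an unadjusted p under 0.05; DESeq2 and limma-voom called 0 members too. Differences of up to about 1 log2 unit lie inside these intervals.

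miRNAs of the mir-35 family, which mark oocytes and embryos, had higher shares in CR and IF than in AL. Their 8 guide arms, all detected in every library, held 1.84% to 15.4% of all reads in AL over days 4 to 10, 3.30% to 26.2% in CR and 6.34% to 39.7% in IF, and were above AL on 4 of 4 days in both diets. Counted per read outside the mir-58 family, their log2 ratio to AL was 0.55 to 1.48 in IF and 0.12 to 0.52 in CR. They held 11.8% to 39.7% of reads on day 4 and 15.4% to 31.4% on day 6, against 1.84% to 6.34% on day 8 and 6.46% to 16.1% on day 10. Muscle miR-1-3p was highest on day 8 (3.94% to 6.25% of reads) and at 0.339% to 2.54% on the other days from 4 on. Per read outside the mir-58 family it was below AL on 4 of 4 days in IF, with log2 ratios from -2.03 to -0.47, and above AL on 2 of 4 days in CR. The 3 intestinal markers held 0.0485% to 0.338% of reads over days 4 to 10, and the 3 neuronal ones at most 0.00494%, with 1 of them at 0 in an AL library. By share of all reads the intestinal list was above AL on 4 of 4 days in CR and 3 of 4 in IF, and the neuronal list on 4 of 4 in both; per read outside the family these counts were 3 and 3 of 4 days, and 4 and 3 of 4 days. The part of these cell types in the changes of the mir-58 family was not tested.

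Between days, with the 3 diets as repeats, the members went separate ways. From day 4 to day 6 miR-58a-3p fell and miR-80-3p rose. The log2 fold change of miR-58a-3p was -2.0 ± 0.36 (edgeR adjusted p = 0.00199); AL gave -2.22, CR -1.68 and IF -2.14. That of miR-80-3p was 1.63 ± 0.43 (edgeR adjusted p = 0.0161), with 1.79, 1.15 and 2.06. Values for miR-81-3p (-0.69 ± 0.37) and miR-82-3p (-0.56 ± 0.43) did not pass. One member of 4 in each direction compares with 7.55% of 212 miRNAs higher and 9.91% lower. Total counts moved the median of all miRNAs by 0.84 and called 84 higher and 9 lower in place of 16 and 21. miR-58a-3p was then at -1.21 and miR-80-3p at 2.37, both still past the threshold. Relative to the median they lay at -2.19 to -2.14 and 1.39 to 1.5 under the 4 scalings. That near agreement holds by construction, because a scaling shifts all miRNAs almost alike. The rise of miR-80-3p no longer passed on leaving out AL day 4, CR day 6 or IF day 6 (edgeR adjusted p up to 0.0957). Neither call held without diet in the model (0.0566 and 0.0838 by edgeR), where 22 of 212 miRNAs passed in place of 37.

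From day 6 to day 8 miR-81-3p fell, by 1.80 ± 0.39 on the log2 scale (edgeR adjusted p = 0.00128); AL gave -1.90, CR -2.36 and IF -1.20. It was 1 of 4 members, near the 24.1% of all miRNAs that were lower. The other values were 0.83 ± 0.35 for miR-58a-3p (edgeR adjusted p = 0.0620), -0.31 ± 0.43 for miR-80-3p and -0.84 ± 0.44 for miR-82-3p. On leaving out AL day 4, AL day 8 or CR day 8, 2 members passed in place of 1. Against TMM, total counts shifted the median miRNA by -1.36 and total counts less the family by -1.65. miR-58a-3p then had values of -0.54 and -0.85 in place of 0.83, and passed as lower at the second (edgeR adjusted p = 0.0398). miR-80-3p (-1.67 and -1.99) and miR-82-3p (-2.20 and -2.52) passed as lower with both. Under these scalings 105 and 117 of all 212 miRNAs were called lower and 23 and 21 higher, in place of 51 and 57, so such calls were common. Relative to the median of all miRNAs the 4 scalings gave much the same values. This agreement is again by construction and cannot tell which scaling is right. The values were 0.64 to 0.67 for miR-58a-3p, -0.50 to -0.46 for miR-80-3p, -1.99 to -1.96 for miR-81-3p and -1.03 to -0.99 for miR-82-3p.

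**Figure D5:**
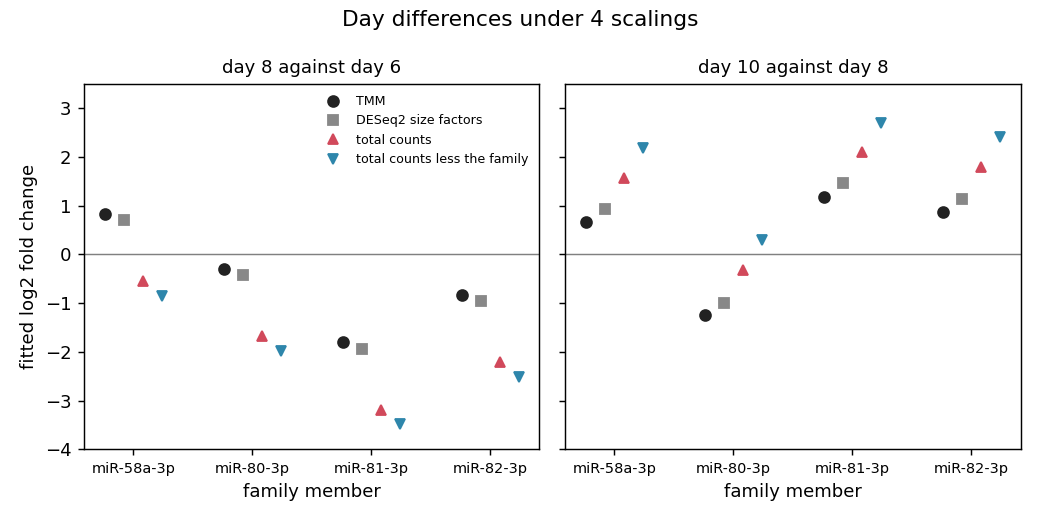
Fitted log2 fold change of each member from day 6 to day 8 (left) and from day 8 to day 10 (right) under 4 scalings. miR-81-3p lies below 0 on the left and above 0 on the right under all 4, whereas miR-58a-3p on the left runs from 0.83 with TMM to -0.85 with total counts less the family.

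From day 8 to day 10 miR-81-3p rose by 1.19 ± 0.38 log2 units (edgeR adjusted p = 0.0169) and miR-80-3p fell by 1.25 ± 0.43 (edgeR adjusted p = 0.0242). Both moved the same way in 3 of 3 diets on the TMM scale. As a percent of all reads miR-80-3p went from 5.95% to 3.03% in AL and from 2.34% to 2.20% in CR. In IF it rose from 2.24% to 2.65%. The shares of all miRNAs called were 23.1% higher and 26.4% lower, so 1 member of 4 each way is near that background. Values of 0.66 ± 0.35 for miR-58a-3p and 0.88 ± 0.44 for miR-82-3p did not pass. Total counts moved the median of all miRNAs by 0.88 and total counts less the family by 1.46, and put miR-58a-3p (1.57 and 2.18) and miR-82-3p (1.79 and 2.40) past the threshold as higher. There 84 and 108 of 212 miRNAs were called higher and 34 and 21 lower, in place of 49 and 56. With total counts miR-80-3p no longer passed (-0.33, edgeR adjusted p = 0.519). With total counts less the family miR-80-3p had a value of 0.29 in place of -1.25. Relative to the median of all miRNAs it lay between -1.13 and -1.06 under the 4 scalings, which nearly agree by construction. Its call was lost on leaving out AL day 8 or 10, CR day 10 or IF day 10, or day 6 in all diets (0.0514 by edgeR). That of miR-81-3p was lost on leaving out AL day 8, CR day 8 or 10, or IF day 10. The adjusted p then rose to at most 0.152 and 0.0951 by edgeR.

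Set side by side, days 4 and 10 differed in miR-81-3p, which fell by 1.30 ± 0.38 log2 units (edgeR adjusted p = 0.0191); AL gave -1.71, CR -1.33 and IF -0.82. It was 1 of 4 members, near the 18.4% of all miRNAs that were lower. This call was lost with total counts (-0.99, edgeR adjusted p = 0.0731). It was also lost on leaving out AL day 4 or 10 or CR day 10 (edgeR adjusted p up to 0.0840). miR-80-3p was at 0.07 ± 0.42, miR-58a-3p at -0.51 ± 0.35 and miR-82-3p at -0.52 ± 0.43, none past the threshold. A straight line through days 2 to 10 called 0 of 4 members by edgeR, against 13.6% of 214 miRNAs, with 1 member at an unadjusted p under 0.05. This fit takes libraries of the same day as independent; with day as a random block, limma-voom called 0 members and 4 of 214 miRNAs in place of 29. The member with an unadjusted p under 0.05 in the edgeR fit was miR-81-3p, at -0.26 ± 0.09 log2 units per day (edgeR adjusted p = 0.0748). DESeq2 called it and limma-voom did not. The slopes of miR-58a-3p (-0.05 ± 0.10), miR-80-3p (0.04 ± 0.14) and miR-82-3p (-0.07 ± 0.08) did not pass. Slopes that differ between diets were called for 0 members and 0% of miRNAs by edgeR, while 0 members and 1 miRNA had an unadjusted p under 0.05, and for 0 by DESeq2 and limma-voom.

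The opposite arms of the 4 hairpins, the passenger strands that are mostly discarded when the guide is loaded, were read far less. The 5p arm of mir-80 had 323 to 2851 reads per library, or 0.394% to 2.34% of the reads of its hairpin. That share was 1.43% on day 2 (AL alone), 0.888% to 1.28% on day 4 and 0.394% to 0.783% on day 6. On day 8 it was 0.416% to 1.88%, which overlaps days 4, 6 and 10, and on day 10 it was 1.01% to 2.34%. The 5p arm of mir-58a had 25 to 117 reads, at most 0.0343% of its hairpin, although the 3p arm led most libraries. Those of mir-82 and mir-81 had 10 to 141 and 0 to 13 reads. In log2 units IF against AL gave 0.30 for miR-58a-5p, -0.12 for miR-80-5p and 0.52 for miR-82-5p, none past the threshold by edgeR. With TMM miR-82-5p passed from day 6 to day 8 (1.51) and day 8 to day 10 (-1.98), opposite in sign to its 3p arm. It also passed from day 4 to day 6 (-1.51) and day 4 to day 10 (-1.99), with that arm's sign. miR-58a-5p passed from day 6 to day 8 (1.62), with its 3p arm, and day 8 to day 10 (-1.16), against it. Of all 212 miRNAs 50.9% passed from day 6 to day 8 and 49.5% from day 8 to day 10. From day 4 the shares were 17.5% to day 6 and 35.4% to day 10. Values of these arms under other scalings are not given. miR-58b-3p, of a hairpin with a related name, had at most 2 reads in a library.

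Across the 13 libraries, which share days and diets, log2 CPM of miR-81-3p and miR-82-3p had a Pearson r of 0.76 and that of miR-58a-3p and miR-82-3p one of 0.70. miR-80-3p stood apart from the other 3, with r of -0.28, -0.12 and 0.11 to miR-58a-3p, miR-81-3p and miR-82-3p. Among 77 miRNAs outside the family with a mean of at least 100 CPM, those nearest to miR-58a-3p were miR-244-5p (r = 0.73), miR-229-5p (0.69) and the intestinal miR-60-3p (0.56). Nearest to miR-80-3p were miR-71-5p (0.75), which promotes long life in worms, miR-61-3p (0.65) and miR-50-5p (0.65). Its neighbours on chromosome III had lower values, 0.27 for miR-238-3p and 0.43 for miR-90-3p. Nearest to miR-81-3p were miR-36-3p (0.83) and miR-40-3p (0.77), both of the mir-35 family, and miR-87-3p (0.76), and nearest to miR-82-3p were miR-77-3p (0.67), miR-87-3p (0.55) and miR-40-3p (0.54). These correlations are descriptions over 13 libraries and carry no test.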

How the data were processed

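Each of the 13 deposited files lists 447 entries with their read counts, not normalized, 1 for each pair of mature and hairpin form, per the file headers. Per the labels' protocols, a 6% polyacrylamide gel was used to take RNA of 18 to 30 nt and libraries followed an Illumina small RNA kit, version 1.5; the aligner, counter, miRNA database release and build are not stated there. Each member had 1 precursor; other miRNAs with several were taken at their highest count, which removed at most 0.219% of reads. A floor of 3 reads is 0.583 to 1.14 CPM.

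Counts were tested with edgeR 4.0.16 (quasi-likelihood, TMM factors 0.475 to 1.63, at least 10 reads in 4 libraries) in R 4.3.3, across all miRNAs with Benjamini-Hochberg adjustment and a threshold of 0.05. Diet and day contrasts came from 1 model of diet plus day, both categorical, over 12 libraries (days 4 to 10), the slope from 13 libraries, and slopes that differ from a diet by day F test. Tests are two-sided, the SE is the log2 fold change over the square root of its F, and intervals use the t distribution.

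The number in the library names stands for the day. After removing diet means, libraries of the same day correlated at 0.555 to 0.894 over 12 pairs and those of other days at -0.585 to 0.316 over 36, so day was kept as a block. Removing the means by itself pulls the values of other days below 0, so the gap is partly built in. Libraries of a day may also share handling, which cannot be told apart from age.

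DESeq2 1.42.0, limma-voom (limma 3.58.1), other scalings and filters, and each library or day left out were tried. Members, lists and tests were chosen with earlier results of these data known. Other named miRNAs are the other arms, hairpins within 10000 bp, the leading miRNA of each library, tissue markers, and the 3 miRNAs of at least 100 CPM most correlated with each member (log2 CPM, prior count 2). Positions come from Ensembl release 115. Sequences were not used here, so no seed match was searched.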

Additional observations from a re-analysis of the deposited data

How the results depend on the processing

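Counts below are of the 4 members past an adjusted p of 0.05, with the calls over all miRNAs of the same fit in brackets. For IF against AL edgeR called 2 (30 of 212), DESeq2 4 (51 of 212) and a filter of 100 reads 4 (33 of 126). Total counts called 1 (42 of 212) and the fit with no replicate block (no day term) 0 (0 of 212). With 1 library or day left out the count was 0 to 3. For CR against AL edgeR called 0 (0 of 212), DESeq2 2 (21 of 212) and the filter of 100 reads 2 (8 of 126). DESeq2's size factors called 1 (9 of 212) and no low-count filter 1 (22 of 370). For day 6 against day 4 the count of 2 (37 of 212) became 0 with no diet term (22 of 212) and 1 to 2 with libraries left out. For day 8 against day 6 the count of 1 (108 of 212) became 2 with DESeq2 (118 of 212), limma-voom (109 of 212) or the filter of 100 reads (75 of 126). It became 3 with total counts and 4 with total counts less the family (128 and 138 of all 212 miRNAs), and 1 to 2 with libraries left out. For day 10 against day 8 the count of 2 (105 of 212) became 4 with DESeq2 (114 of 212) or its size factors (109 of 212). It became 0 with no diet term (93 of 212), and 0 to 2 with libraries left out. For day 10 against day 4 the count of 1 (75 of 212) became 0 with total counts (66 of 212) and 0 to 1 with libraries left out. For the slope the count of 0 (29 of 214) became 1 with DESeq2 (65 of 214), with no diet term (39 of 214) or without day 10 (58 of 201). It stayed 0 with each single library left out. With day as a random replicate block it was 0, and 4 of 214 miRNAs passed in place of 29. The replicate block changed no call of CR against AL or CR against IF. The mean log2 ratio of the family total, IF to AL, was -1.24 by CPM and -0.78 as a share of total counts.

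Directions turned for values that had not passed, miR-80-3p from day 8 to day 10 excepted; the cause was not tested except where a shift is given. Total counts gave 0.11 for miR-81-3p and 0.19 for miR-82-3p from day 4 to day 6, where they moved the median miRNA by 0.84 (-0.87 and -0.78 relative to it), and -0.54 for miR-58a-3p from day 6 to day 8. Total counts less the family gave -0.85 for that last value, which then passed, and 0.29 for miR-80-3p from day 8 to day 10. From day 4 to day 10 miR-80-3p was at -0.041 with DESeq2, -0.041 with its size factors and -0.00475 with the filter of 100 reads, which put miR-82-3p at -0.035 for CR against IF. The slope of miR-80-3p was -0.056 with total counts, -0.10 with total counts less the family and -0.032 without day 2. With libraries or days left out, CR minus IF ran from -0.025 to 0.41 for miR-58a-3p, from -0.022 to 0.47 for miR-81-3p and from -0.12 to 0.39 for miR-82-3p. For miR-80-3p, day 8 against day 6 then ran from -0.79 to 0.032 and day 10 against day 4 from -0.21 to 0.50. Slopes ran from -0.24 to 0.10 for miR-58a-3p, -0.12 to 0.26 for miR-80-3p and -0.24 to 0.016 for miR-82-3p. Of 872 member values under all alternatives 772 kept side of the threshold and any direction, 38 no longer passed, 36 newly passed and 26 turned. The 772 take in all values for slopes that differ between diets, 24 for each member. Those have no direction and could not turn. The fewest reads of a member in any library were 2098, against the floor of 3, and each diet and day rests on 1 library.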
